A study of Caenorhabditis elegans with 12 samples.

Results

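Changes shared by 3 forms of silver, namely sulfidized (aged) nanoparticles, pristine nanoparticles and the salt silver nitrate, were sought by setting the 9 arrays of silver-exposed Caenorhabditis elegans, with the 3 forms weighted equally, against the 3 control arrays. All 12 arrays of the study and 22548 of its 22625 probe sets entered, and the 77 set aside were array controls. The animals of every group were wild-type N2 (Bristol) nematodes, the laboratory strain, hatched from age-synchronised eggs and placed in the test solution as L1 larvae, the stage that hatches from the egg, 12 h old. They stayed 48 h in aged particles (3 arrays), pristine particles (3 arrays), silver nitrate (3 arrays) or control solution (3 arrays). The forms were matched on effect, each at its EC30 for reproduction, the level at which reproduction is affected by 30%. The concentrations and the make-up of the control solution are not given in the sources used here. RNA came from whole populations of 2000 to 3000 animals at 1 time point, and each array reports a population. The labels do not say whether replicate arrays came from separate cultures, and p-values here then reflect only how much these samples vary, which may be technical variation.

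Silver is toxic to nematodes as dissolved ion and as particles that release ion, and sulfidation, which happens in sewage, makes particles less soluble. Worms are known to answer metals and reactive compounds with metallothioneins, glutathione S-transferases and other conjugating enzymes, many of them controlled by the transcription factor SKN-1. Their growth and reproduction are set in part by insulin-like peptides and other neuropeptides, by feeding and by the molting cycle, in which epidermal collagen and hedgehog-related genes are switched on and off with each larval stage.

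One gene passed the test for a change common to the silver forms. A probe set of lem-4, whose product helps to rebuild the nuclear envelope after mitosis, fell in silver (log2 difference −1.14 ± 0.06 SE, limma adjusted p = 0.000261). It was 1 of 22548 probe sets (0.00443%). Its signal was 18.4, 16 and 16.7 on the aged-particle arrays, 16 on all 3 pristine arrays and 16 on all 3 silver nitrate arrays, against 34.9, 33.6 and 39.8 on the control arrays. A signal of 16 is the floor set for values too dim to order, and 7 of the 9 silver arrays lay at it, so the difference is a lower bound in size and the silver arrays have almost no spread. The control values were themselves low. Both other lem-4 probe sets, the brighter one included, lay within the spread (log2 differences 0.21 ± 0.17 and 0.03 ± 0.41 SE). The call was lost with a floor of 1 (adjusted p = 0.436) and with a floor of 64, where all arrays are level (adjusted p = 1), and the probe set was too dim for either filter on brightness.

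Beyond lem-4, no probe set passed. An unadjusted p under 0.05 was reached by 2133 probe sets (9.46%), of which 880 (3.9%) lay higher and 1253 (5.56%) lower in silver, and these include probe sets whose forms differed from control in opposite directions. All 9 silver arrays lay on one side of all 3 control arrays in 290 probe sets (1.29%), 186 of them with silver below (0.825%) and the others with silver above (0.461%). If group labels made no difference, either order would arise with a probability of 0.0045 per probe set, ties aside. Groups that lie apart are therefore given below as a description of values and not as a test. In those 290 the size of the log2 difference had a median of 0.46 and quartiles of 0.33 and 0.68. Among them, 19 reached a 2-fold difference, and in 9 of these no array lay at the floor. The median standard error of a pooled difference was 0.162 on the log2 scale.

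**Figure D1:**
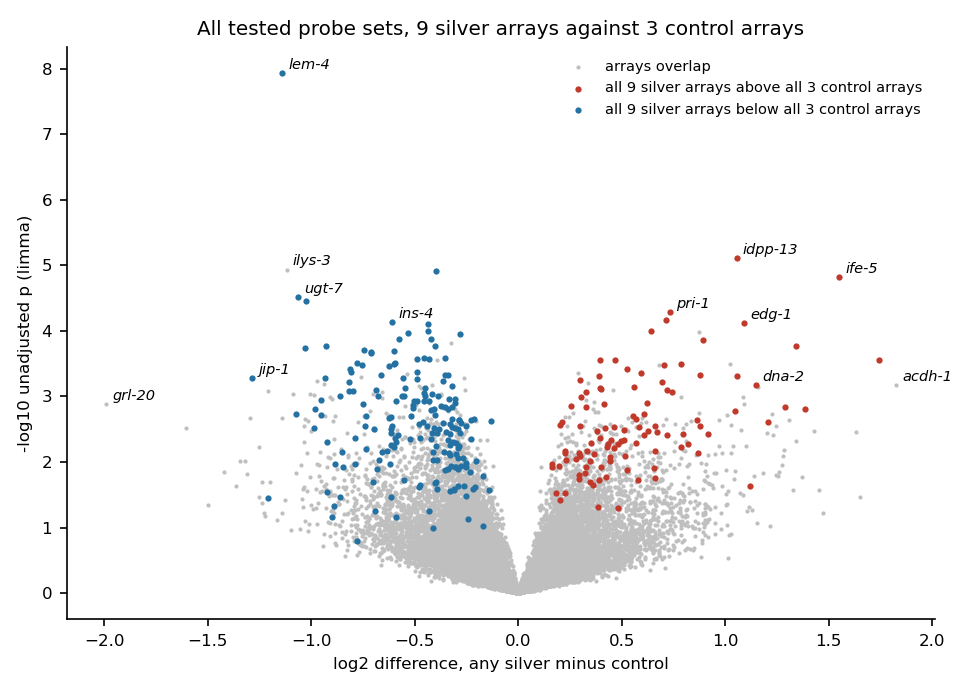
Log2 difference (any silver minus control, x axis) and −log10 of the unadjusted limma p (y axis) for all 22548 tested probe sets. Coloured points are the 290 probe sets with all 9 silver arrays above (red) or below (blue) the 3 control arrays, grey points are probe sets whose arrays overlap, and the lem-4 probe set stands apart at the top left.

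The genes next in order of p that were higher in silver included ife-5, pri-1 and rnr-1, and none of them passed. The signal of ife-5, a germline isoform of the cap-binding translation initiation factor eIF4E, was 54.1 to 102.5 on the silver arrays (median 68.1), against 31.5, 19.9 and 21.5 on the control arrays. The groups did not overlap, and the log2 difference was 1.55 ± 0.18 SE (limma adjusted p = 0.0682). For pri-1, the small subunit of DNA primase, the silver arrays ran from 94.7 to 152.6 (median 112.3), against 64.5, 71.3 and 75.6 on the control arrays. The groups were again apart (0.73 ± 0.10 SE, adjusted p = 0.146). The signal of rnr-1, the large subunit of ribonucleotide reductase, lay between 213.0 and 265.0 in silver (median 242.0), against 182.5, 167.8 and 195.6 in control. Every silver array exceeded every control array, by a smaller margin (0.40 ± 0.07 SE, adjusted p = 0.165). A probe set of swsn-1, a SWI/SNF chromatin remodelling subunit, read 104.8 to 146.3 in silver (median 124.6), against 75.2, 82.2 and 83.2 in control. It differed by 0.64 ± 0.10 SE (adjusted p = 0.149), while the brighter swsn-1 probe set differed by −0.14. 

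The gene idpp-13, of a family of disordered pharyngeal cuticle proteins, lay at the floor on all 3 control arrays and between 24.9 and 44.4 on the silver arrays (median 32.9). It was thus at least 2.08-fold higher (adjusted p = 0.0674). Also apart between the groups were edg-1 (log2 difference 1.09 ± 0.16 SE), Y43F11A.6 (1.34 ± 0.22 SE, 1 control array at the floor), szy-4 (1.74 ± 0.30 SE, 2 control arrays at the floor) and F18A1.7 (0.47 ± 0.08 SE), with adjusted p-values of 0.148 to 0.165. The other szy-4 probe set differed by 0.64, and the 2 others of F18A1.7 by 0.14 and −0.11. The collagen col-164 stood in the same order of p with a pooled difference of 0.87, but this came from 1 form. Its aged-particle arrays read 118.7, 161.7 and 158.9, against 16 on every pristine and silver nitrate array and 16, 23.7 and 16 on the control arrays.

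Among genes lower in silver, those next in order of p after lem-4 included ugt-7, ins-4 and lin-44, and none passed. The signal of ugt-7, a UDP-glucuronosyltransferase, was 45.5 to 74.7 on the silver arrays (median 62.7), against 137.9, 142.2 and 112.2 on the control arrays. All silver arrays lay below all control arrays, and the 3 forms gave −0.98 (aged), −1.03 (pristine) and −1.19 (silver nitrate), with a pooled difference of −1.07 ± 0.14 SE (adjusted p = 0.112). The signal of ins-4, an insulin-like ligand of the receptor DAF-2, was 408.4 to 591.7 in silver (median 492.6), against 648.9, 826.3 and 821.7 in control. These groups did not overlap either (−0.61 ± 0.09 SE, adjusted p = 0.148). For lin-44, a Wnt ligand, the range was 158.7 to 205.7 in silver (median 181.1), against 259.7, 241.2 and 228.9 in control. Its pooled difference was −0.43 ± 0.07 SE, with the groups apart (adjusted p = 0.149).

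The brightest of these genes lay well over the floor. The signal of T20D3.6 was 6551.6 to 8005.8 in silver (median 7402.0), against 8687.5, 9127.3 and 8845.5 in control, a separation of the groups by a difference of −0.28 ± 0.04 SE. The signal of bath-38, which codes for a protein with BTB and MATH domains, was 1980.0 to 2945.1 in silver (median 2590.3), against 3277.0, 3630.4 and 3290.8 in control (−0.44 ± 0.06 SE). One probe set of R06C1.6 differed by −0.53 ± 0.08 SE and its brighter one by −0.09. The adjusted p-values of these 3 genes were 0.148 to 0.149. Near the floor, nhr-89, a nuclear hormone receptor, had a median of 17.8 in silver and read 29.6, 33.4 and 48.4 in control (at most 22 in silver, adjusted p = 0.112), and Y69A2AR.24 lay at the floor on all 9 silver arrays and at 20.9, 19.4 and 22.9 in control (adjusted p = 0.0674).

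**Figure D2:**
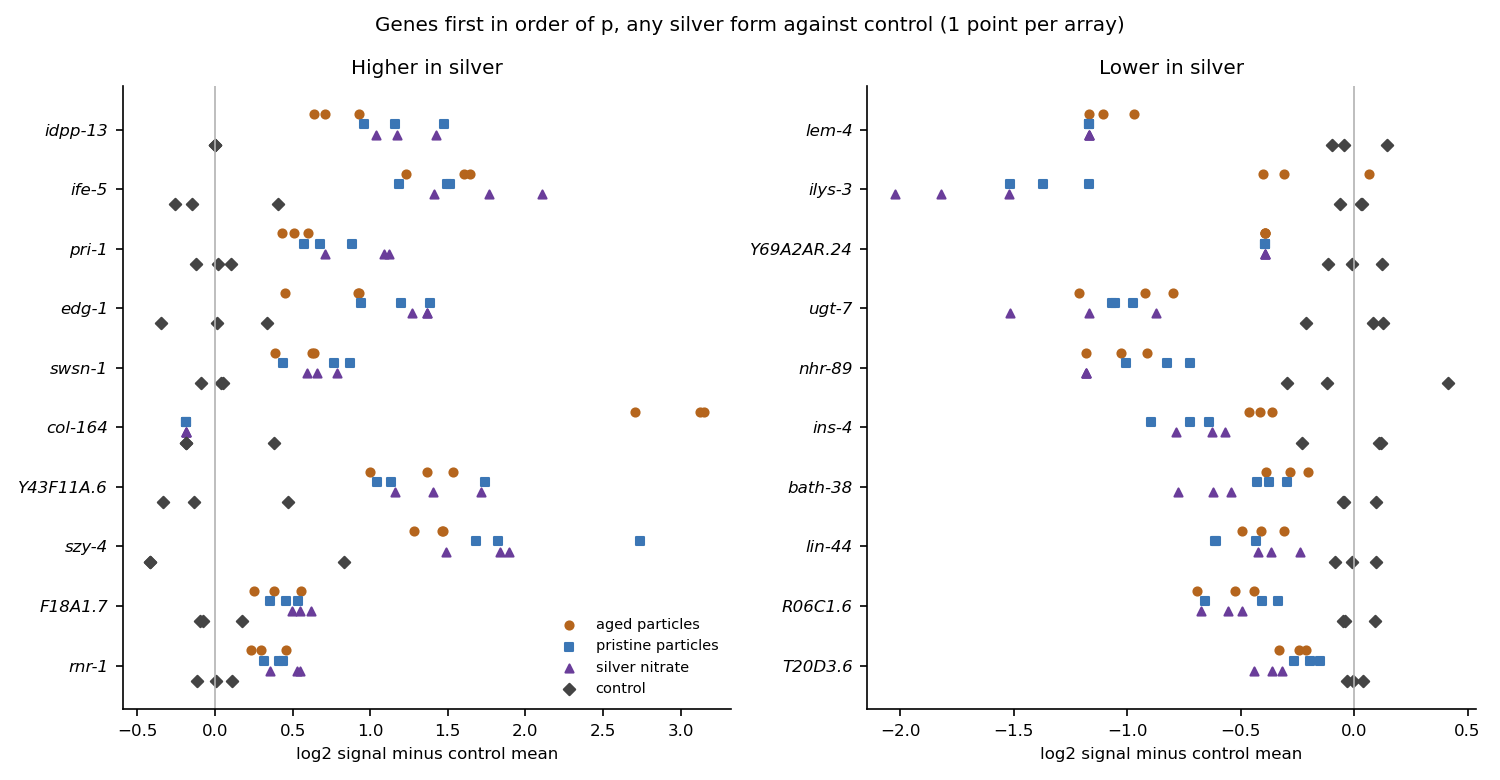
Log2 signal of each array less the control mean (x axis) for the 10 genes first in order of p in each direction, with 1 point per array for aged particles, pristine particles, silver nitrate and control. Apart from col-164 and ilys-3, whose aged-particle arrays stand away from the other silver arrays, all 9 silver points of a gene lie on one side of its 3 control points.

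Of the genes at 2-fold or more with the groups apart and no array at the floor, 6 lay higher and 3 lower in silver, and those not named above were picked after their values were seen. The helicase and nuclease gene dna-2, of DNA replication and repair, ran from 85.0 to 128.9 in silver and from 30.7 to 70.1 in control (1.15 ± 0.23 SE, adjusted p = 0.203). The heme-responsive gene hrg-11.2 ran from 251.3 to 808.9 in silver and from 153.1 to 250.5 in control (1.06 ± 0.20 SE, adjusted p = 0.186). On the lower side, a probe set of jip-1, a scaffold of JNK signalling, read at most 82.5 in silver and from 95.4 to 105.4 in control (−1.29 ± 0.24 SE, adjusted p = 0.187). Its difference was −2.31 with aged particles, −0.77 with pristine particles and −0.78 with silver nitrate, and the brightest jip-1 probe set differed by 0.05 in the pooled contrast. The uncharacterised genes D1086.3 and Y65B4A.7 (1.12 and 1.05) and F56H9.6 (−1.08) complete the set with ife-5, edg-1 and ugt-7. None of these passed. For D1086.3, silver nitrate replicate 2 read 675.3 and the other silver arrays at most 229.4.

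Genes were then grouped by known role into 35 lists, beside which stand all 17118 genes measured: 7650 of those lay higher and 8937 lower in silver, with a median log2 difference of −0.01. Of all genes, 9.52% had an unadjusted p under 0.05 and 1.3% had groups that did not overlap. In these counts a gene with several probe sets stands through its brightest, and no member of a list passed. The 3 comparisons of a single form with control share their control arrays, so their values are given side by side only.

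Genes of germline proliferation and meiosis lay mostly higher in silver. Of 41 measured, 31 lay higher and 10 lower, with a median of 0.24, and by form the medians were 0.10 (aged), 0.25 (pristine) and 0.33 (silver nitrate). An unadjusted p under 0.05 was reached by 10, all higher, and the groups were apart for glh-2, gld-1 and rad-51. The signal of glh-2, a helicase of P granules, the RNA-protein bodies of germ cells, was 102.6 to 173.1 in silver (median 132.3), against 99.9, 78.6 and 82.9 in control (0.62 ± 0.13 SE, adjusted p = 0.225). For gld-1, which binds germline mRNAs and controls entry into meiosis, silver arrays ran from 62.4 to 142.6 (median 84.5), against 46.4, 58.1 and 39.8 in control (0.87 ± 0.25 SE, adjusted p = 0.338). Related genes with overlapping groups were glh-1 (0.68) and pgl-1 (0.69), further P granule components.

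The level of the germline list, its mean log2 signal less that of control, overlapped between the groups. It was −0.02 to 0.24 on the aged-particle arrays, 0.23 to 0.36 on the pristine arrays and 0.31 to 0.36 on the silver nitrate arrays, against −0.16 to 0.26 on the control arrays. One control array thus lay above the 3 aged-particle arrays and inside the pristine range. A set of 12 germline markers had 11 higher, a median of 0.37 and none at the floor on all arrays. The set shares members with the list, glh-2 and gld-1 among them, so it is not a separate reading. Its level was 0.09 to 0.48, 0.35 to 0.45 and 0.42 to 0.63 for the 3 forms in the same order, against −0.19 to 0.25 in control. Leaving out control replicate 1 gave a marker median of 0.57, and leaving out control replicate 3 gave 0.23. In RNA from whole animals, a change in the number of cells of a type and a change in RNA per cell cannot be told apart.

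DNA replication genes followed the same direction. Of 38 measured, 28 lay higher and 9 lower, with a median of 0.15 and form medians of 0.09, 0.19 and 0.21 (aged, pristine, silver nitrate). Members at an unadjusted p under 0.05 numbered 9, all higher, and 4 had groups that did not overlap: pri-1, rnr-1, pcn-1 and mcm-5. The signal of pcn-1, the sliding clamp PCNA, was 299.7 to 429.7 in silver (median 359.1), against 257.0, 289.0 and 284.0 in control (0.40 ± 0.10 SE, adjusted p = 0.297). The helicase subunit mcm-6 ran from 309.2 to 422.3 in silver (median 343.6), against 310.0, 269.6 and 258.6 in control, so that its groups touched (0.34 ± 0.09 SE, adjusted p = 0.28). The list's level was 0.07 to 0.29 over the silver arrays and −0.12 to 0.13 over the control arrays. Its median was 0.09 without control replicate 2.

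Oocyte and eggshell genes had 23 of 33 members higher (median 0.12, and 0.22 without control replicate 1), with 5 higher and 1 lower at an unadjusted p under 0.05. The 5 became 10 when control replicate 1 was left out and 2 when control replicate 2 was. The eggshell proteoglycan gene cpg-2 ran from 188.9 to 353.8 in silver (median 288.1), against 215.3, 144.2 and 162.0 in control (0.68 ± 0.12 SE, adjusted p = 0.165). In the other direction, cpg-8 was very bright and lower, from 6931.2 to 10454.7 in silver (median 9983.1), against 10745.3, 12922.2 and 11192.1 in control, with the groups apart (−0.29 ± 0.09 SE). Oocyte markers had 9 of 11 higher, with a level of 0.02 to 0.53 over the silver arrays and −0.28 to 0.35 over the control arrays. These markers share members with the list, cpg-2 among them. Sperm genes leaned the other way, with 52 of 72 lower and a median of −0.13, but leaving out control replicate 3 gave −0.02 and leaving out control replicate 1 gave −0.26. One of them (1.39% of the list, against 1.3% of all genes) was apart between the groups. This was spe-36, a sperm protein needed for fertilisation, at 30.8 to 51.6 in silver and 52.5 to 82.0 in control (−0.68 ± 0.14 SE, adjusted p = 0.208).

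All 5 measured vitellogenins, the yolk protein genes that adult hermaphrodites transcribe at very high levels, were dim on these arrays and lay lower in silver. The signal of vit-2 was at most 21.4 in silver and 22.7 in control, and that of vit-6, the brightest, was 87.2 to 154.6 in silver and 112.7 to 148.1 in control. Log2 differences were −0.71 for vit-1, −0.62 for vit-4, −0.42 for vit-5, −0.13 for vit-2 and −0.07 for vit-6, with adjusted p-values from 0.338 to 0.944. The 3 vitellogenins with most silver arrays at the floor, vit-1, vit-2 and vit-5, also had control arrays at it. The differences of vit-5, vit-2 and vit-6 changed direction when 1 array was left out.

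Neuropeptide genes lay mostly lower in silver. Of 83 measured, 67 lay lower and 15 higher, with a median of −0.17 and form medians of −0.13 (aged), −0.18 (pristine) and −0.20 (silver nitrate). An unadjusted p under 0.05 was reached by 24 lower and 1 higher, and the groups were apart for nlp-68, nlp-99, nlp-2, flp-12 and flp-5, all lower. The signal of nlp-68 was 447.8 to 630.1 in silver (median 547.8), against 634.5, 863.4 and 709.4 in control (−0.41 ± 0.09 SE, adjusted p = 0.24). That of flp-18, which codes for FMRFamide-like peptides, was 4355.6 to 7077.3 in silver (median 5148.2), against 6262.9, 7334.7 and 8037.0 in control. Its 2 brightest aged-particle arrays lay inside the control range (−0.44 ± 0.10 SE, adjusted p = 0.263). In nlp-20 the aged-particle arrays read 8143.0, 6928.2 and 6316.5, like the control arrays at 8206.4, 7078.6 and 6455.6, while the pristine and silver nitrate arrays lay between 4245.3 and 5307.4.

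The neuropeptide list's level was −0.10 to 0.02 on the aged-particle arrays, −0.22 to −0.10 on the pristine arrays and −0.27 to −0.14 on the silver nitrate arrays, against −0.09 to 0.17 in control. The high end of control was 1 array, and without control replicate 2 the list's median was −0.07 and 13 genes, in place of 24, lay lower at an unadjusted p under 0.05. Of 12 neuron markers, 10 lay lower, with a median of −0.09 (−0.05 without control replicate 2 and −0.01 after quantile normalisation) and none at the floor on all arrays. Their level was −0.22 to 0.03 over the silver arrays and −0.11 to 0.11 over the control arrays, and their part in the neuropeptide values was not tested. Markers with the smallest p were rgef-1 (−0.56), a neuronal exchange factor for Ras-family proteins, and ida-1 (−0.31), a protein of dense-core vesicles, which carry neuropeptides. By form rgef-1 gave −0.77 (aged), −0.06 (pristine) and −0.84 (silver nitrate), with its pristine arrays inside the control range. Egl-21 and egl-3, enzymes that process neuropeptide precursors, differed by −0.16 and −0.10.

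Insulin-like peptides leaned lower too, with 16 of 24 lower and 7 higher. Their median of −0.06 moved to −0.20 when control replicate 1 was left out, to −0.02 under the deposited scaling and to −0.03 after quantile normalisation. After ins-4 the smallest p-values belonged to ins-24 (−0.26 ± 0.07 SE) and ins-5 (−0.42 ± 0.15 SE), whose silver and control arrays overlapped. Genes of heterotrimeric G protein signalling had 20 of 29 lower (median −0.07, −0.03 under the deposited scaling or without control replicate 2, and −0.13 without control replicate 3). The groups were apart for dgk-1, a diacylglycerol kinase, at 132.3 to 168.1 in silver and 174.7 to 189.2 in control (−0.29 ± 0.07 SE, adjusted p = 0.271). They were apart also for acy-1, an adenylyl cyclase, at 331.0 to 495.0 in silver and 501.6 to 585.8 in control (−0.31 ± 0.12 SE, adjusted p = 0.463). The Gq subunit gene egl-30 gave −1.12 with aged particles, −0.34 with pristine particles and −0.39 with silver nitrate.

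**Figure D3:**
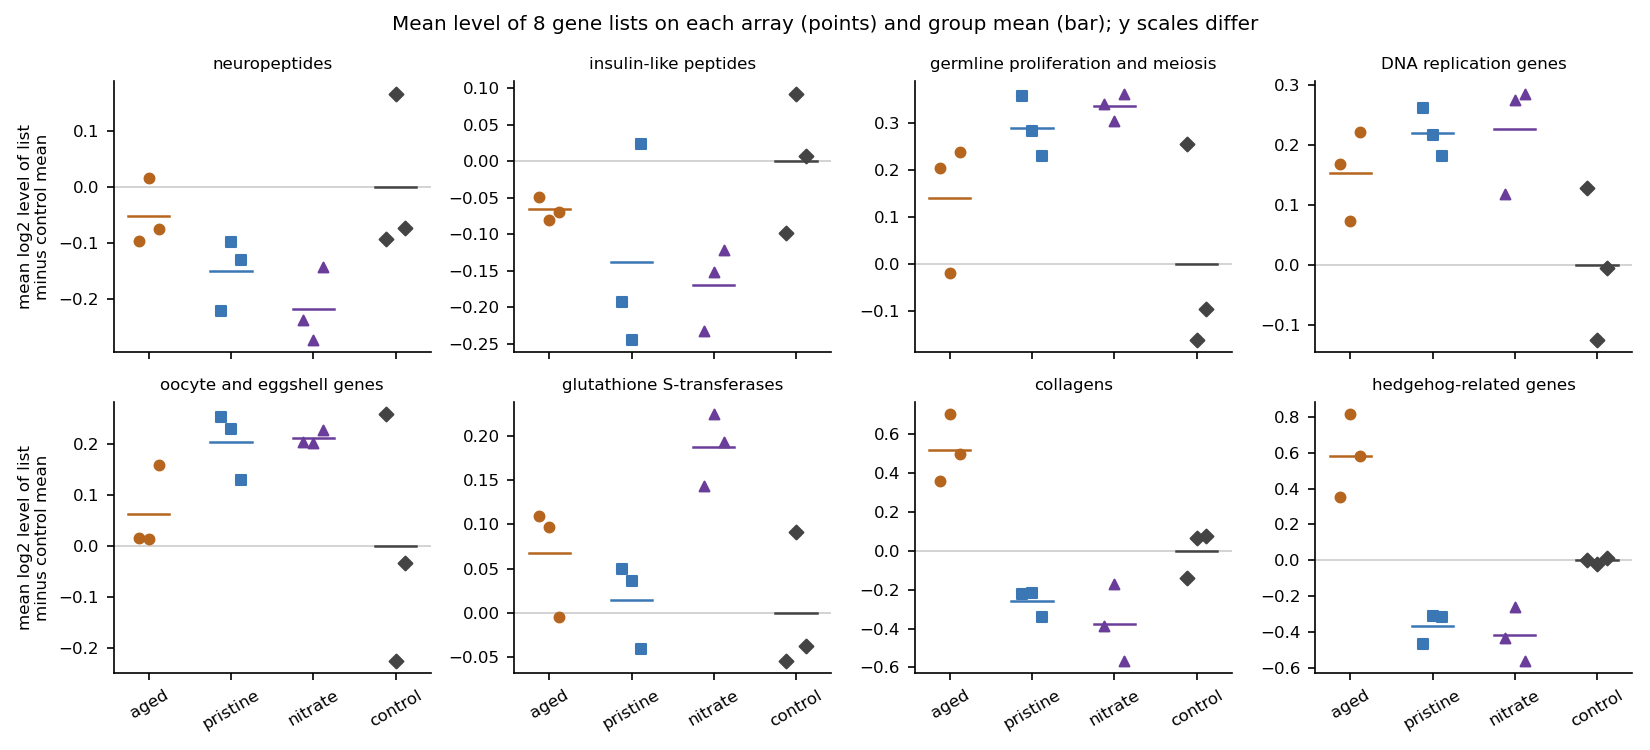
Mean log2 signal of 8 gene lists on each array less the control mean (y axes, which differ in scale), with 1 point per array and a bar at each group mean, for aged particles, pristine particles, silver nitrate and control. Germline and neuropeptide levels of the silver arrays overlap those of the control arrays, and collagen and hedgehog-related levels lie above control with aged particles and below it with the other forms.

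Genes known to answer metals gave small differences. Of 18 measured, 12 lay higher and 6 lower (median 0.07, −0.03 without control replicate 3), with 2 higher and 1 lower at an unadjusted p under 0.05 and none with the groups apart. The metallothionein gene mtl-1 was bright in every group, at 4448.7 to 5790.7 in silver (median 5419.5), against 6437.4, 6654.6 and 5331.8 in control. The lowest control array lay inside the silver range, and the difference was −0.21 ± 0.08 SE (adjusted p = 0.466). The other metallothionein, mtl-2, gave −0.19 ± 0.11 SE on its brightest probe set (adjusted p = 0.647). Cadmium-responsive cdr-4 gave 0.33 ± 0.11 SE (adjusted p = 0.378) and hizr-1, the receptor that senses high zinc, gave 0.27 ± 0.10 SE (adjusted p = 0.436). By form hizr-1 gave −0.02 (aged), 0.42 (pristine) and 0.40 (silver nitrate).

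Conjugating and export genes leaned higher in the pooled contrast, though not with every form. Of 45 glutathione S-transferases 28 lay higher, and 9 higher and 0 lower had an unadjusted p under 0.05. Those counts were 4 higher and 2 lower when control replicate 1 was left out, and 5 higher and 1 lower when control replicate 3 was. Their median was 0.06 over the forms together, 0.06 with aged particles, 0 with pristine particles and 0.18 with silver nitrate. With silver nitrate left out it was 0, with 22 genes higher and 22 lower, and 6 higher and 4 lower had an unadjusted p under 0.05. Leaving out control replicates 1, 2 and 3 gave 0.03, 0.12 and −0.02, and leaving out aged replicate 3 gave 0.09. The groups were apart for gst-41, gst-24 and gst-10. The signal of gst-24 was 648.2 to 931.7 in silver (median 711.4), against 521.3, 587.4 and 610.9 in control (0.33 ± 0.10 SE, adjusted p = 0.376), and that of gst-41 was 560.0 to 791.5 in silver (median 647.3), against 514.1, 534.8 and 502.6 in control (0.33 ± 0.10 SE). By form these 2 genes lay between 0.27 and 0.42, whereas gst-20, with the smallest p of the list, gave 0.11 with aged particles, 0.33 with pristine particles and 0.57 with silver nitrate.

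UDP-glucuronosyltransferases had 42 of 64 higher (median 0.10), with 7 higher (4 when control replicate 1 was left out) and 3 lower at an unadjusted p under 0.05. The groups were apart for 2 members, in opposite directions. These were ugt-7, described above, whose difference of −1.07 was the larger, and ugt-62, at 318.7 to 448.9 in silver and 200.1 to 316.0 in control (0.51 ± 0.14 SE, adjusted p = 0.302). SKN-1 targets, which share members with the transferases, had 20 of 28 higher, with a median of 0.08 (0.04 when control replicate 1 was left out, 0.16 when control replicate 2 was). ABC transporters had 32 of 50 higher (median 0.06, 0.02 without silver nitrate replicate 1 and 0.02 with silver nitrate left out). Their form medians were 0 (aged), 0.07 (pristine) and 0.10 (silver nitrate). Among those higher was the half-transporter wht-2, at 520.6 to 659.9 in silver and 401.7 to 531.4 in control (0.38 ± 0.09 SE, adjusted p = 0.25). Cytochrome P450 genes were divided, with 38 of 73 higher. Enzymes against oxidative stress were divided as well, with 10 of 23 higher and 0 higher at an unadjusted p under 0.05.

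The medians of protein-folding genes moved with the array left out. Of 19 cytosolic heat shock genes 13 lay lower (median −0.09, −0.06 without control replicate 1 and −0.16 without control replicate 3). The small heat shock gene hsp-16.2 gave 0.07 with aged particles, −0.70 with pristine particles and −1.48 with silver nitrate. Its aged-particle arrays read 1581.2, 4694.1 and 1570.8, against 2052.4, 2550.7 and 1921.1 in control, so 1 array lay above and 2 below all control arrays. Of 23 endoplasmic reticulum stress genes 16 lay higher (median 0.10, 0.0036 without control replicate 3). Cytosolic ribosomal protein genes had 71 of 75 lower by a small amount in the pooled contrast, a median of −0.08. Form medians were −0.10 (aged), 0.0093 (pristine) and −0.14 (silver nitrate). The direction of the pooled median turned with quantile normalisation, where it was 0.01. This median was −0.02 when control replicate 2 was left out, −0.14 for control replicate 1 and −0.04 for silver nitrate replicate 2.

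Genes of the intestine showed single members with the groups apart. Among lysosomal proteases and vacuolar ATPase subunits, 18 of 42 lay higher, and 3 of them were apart between the groups. The signal of asp-7, an aspartyl protease, was 217.7 to 391.1 in silver and 114.5 to 214.1 in control (0.88 ± 0.16 SE, adjusted p = 0.186), and that of asp-8, a relative, was 160.8 to 420.2 in silver and 107.9 to 129.9 in control (0.88 ± 0.22 SE, adjusted p = 0.266). The 420.2 of asp-8 came from silver nitrate replicate 2, and the next highest silver array read 237.2. The cathepsin B-like gene cpr-2 lay lower with each form (−0.88, −1.67 and −0.88), with 1 silver nitrate array inside the control range. Of 12 intestine markers 9 lay higher and none was at the floor on all arrays (median 0.16), and their level was −0.03 to 0.35 over the silver arrays and −0.07 to 0.07 over the control arrays. These markers include asp-1, cpr-6 and vha-6, which are of the same gene classes as that list, and their part in the protease values was not tested. The actin of intestinal microvilli, act-5, was 876.0 to 2230.9 in silver (median 1002.3), against 870.8, 475.0 and 848.1 in control, with the groups apart by a narrow margin (0.66 ± 0.23 SE, adjusted p = 0.414). Its 2230.9 came from silver nitrate replicate 2, and the next highest silver array read 1214.6.

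In fatty acid metabolism the list was evenly divided, with 23 of 50 higher. Its member with the smallest p was acdh-1, an acyl-CoA dehydrogenase of the propionate shunt, at 136.2 to 961.4 in silver (median 373.8), against 68.8, 197.1 and 136.3 in control. The silver nitrate arrays lay at 944.1 to 961.4 and 1 aged-particle array inside the control range, and the form differences were 0.97 (aged), 1.54 (pristine) and 2.96 (silver nitrate). The palmitoyl-CoA desaturase gene fat-5 gave 1.16 ± 0.23 SE (adjusted p = 0.204), with 48.6 to 133.1 in silver and 24.5 to 50.6 in control. The thiolase gene daf-22, needed for ascaroside pheromones, was apart between the groups at 438.1 to 611.2 in silver and 397.0 to 430.2 in control (0.32 ± 0.11 SE, adjusted p = 0.397). Of 13 iron and heme genes 7 lay higher (median 0.06, −0.02 without control replicate 3), and hrg-11.2 was the 1 whose groups did not overlap.

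Immune genes gave mixed values. Antimicrobial peptides and effectors had 24 of 34 higher, with a median of 0.19 that was 0.12 without control replicate 1, and form medians of 0.25 (aged), 0.09 (pristine) and 0.03 (silver nitrate). The caenacin gene cnc-5 gave 1.09 ± 0.24 SE (adjusted p = 0.227), and spp-12, which codes for a saposin-like protein, gave −0.96 ± 0.30 SE (adjusted p = 0.374). By form spp-12 gave −0.35 (aged), −0.31 (pristine) and −2.23 (silver nitrate), and only its silver nitrate arrays lay below all control arrays. C-type lectins, sugar-binding proteins many of which answer bacteria, had 96 of 220 higher and a median of 0. One was apart between the groups, clec-17, at 1148.3 to 1657.1 in silver and 1693.9 to 2165.0 in control (−0.41 ± 0.10 SE, adjusted p = 0.269). That is 0.455% of the list, against 1.3% of all genes. The invertebrate-type lysozyme gene ilys-3, which acts in the digestion of bacteria, had the second smallest p of the genes lower in silver, but its forms differed. Its signal was 252.5 to 349.5 with aged particles, 116.6 to 148.7 with pristine particles and 82.1 to 116.2 with silver nitrate, against 340.6, 320.1 and 341.7 in control.

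Single members stood apart in a few of the lists whose medians lay near that of all genes. Astacin proteases, which process extracellular proteins, had 16 of 33 higher and a median of 0. Among them nas-39 read 69.9 to 180.3 in silver (median 133.4), against 186.1, 193.4 and 197.1 in control, with the groups apart (−0.62 ± 0.11 SE, adjusted p = 0.165), and nas-32 was apart by less (−0.29 ± 0.08 SE, adjusted p = 0.329). By form nas-39 gave −0.41 (aged), −0.24 (pristine) and −1.22 (silver nitrate). Ribosome biogenesis genes had 15 of 33 higher. One of them, pro-3, was 66.2 to 110.6 in silver (median 83.4), against 165.5, 128.6 and 122.6 in control (−0.71 ± 0.12 SE, adjusted p = 0.165), while fib-1, the nucleolar protein fibrillarin, lay higher with overlapping groups (0.47 ± 0.15 SE, adjusted p = 0.373). Nuclear hormone receptors had 97 of 254 higher (median −0.03), and the groups were apart for 1.18% of them, against 1.3% of all genes. The receptor gene nhr-54 was 99.4 to 154.3 in silver and 75 to 97.2 in control (0.59 ± 0.14 SE, adjusted p = 0.266), opposite in direction to nhr-89.

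Forms that go opposite ways partly cancel in the pooled difference, so the forms were also compared with each other, without the control means. The F test called 50 of 22548 probe sets (0.222%). Of the 50, aged particles lay above control with pristine particles and silver nitrate below it in 36. Cuticle collagens made up 14 of the 50 and hedgehog-related genes 9, where grl-20 and grl-25 enter through several probe sets. Counted by gene through the brightest probe set, the F test called 45 of all 17118 genes, 14 of 147 collagens and 7 of 54 hedgehog-related genes. The pooled contrast gave 23 of the 50 an unadjusted p under 0.05, which 9.46% of all probe sets reached. None of the 50 had all silver arrays on one side of the control arrays. Such probe sets were 1.29% of all, so few or none would be expected among 50, and nothing is concluded from their absence.

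Collagens, the structural proteins of the cuticle, thus had a pooled median of −0.01 over 147 genes, with 67 higher and 75 lower, and form medians of 0.36 (aged), −0.19 (pristine) and −0.21 (silver nitrate). On average its members lay 0.36 to 0.70 above the control mean on the aged-particle arrays, with levels of −0.34 to −0.22 on the pristine arrays and −0.56 to −0.17 on the silver nitrate arrays, against −0.14 to 0.07 in control. In col-158 the arrays read 1231.1, 1615.9 and 1836.7 with aged particles, 116.2, 61.3 and 47.6 with pristine particles and 16 on all 3 silver nitrate arrays, against 208.8, 481.3 and 253.9 in control. Silver arrays lay on both sides of control, and the F test passed (adjusted p = 0.00105). Hedgehog-related genes, secreted proteins of the epidermis in worms, had a pooled median of 0.04 over 54 genes and form medians of 0.59, −0.15 and −0.10. The ground-like gene grl-20 read 1420.6, 2514.1 and 2905.1 with aged particles, 266.7, 244.1 and 82.0 with pristine particles and 16 on all 3 silver nitrate arrays, against 511.6, 1407.7 and 533.6 in control.

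**Figure D4:**
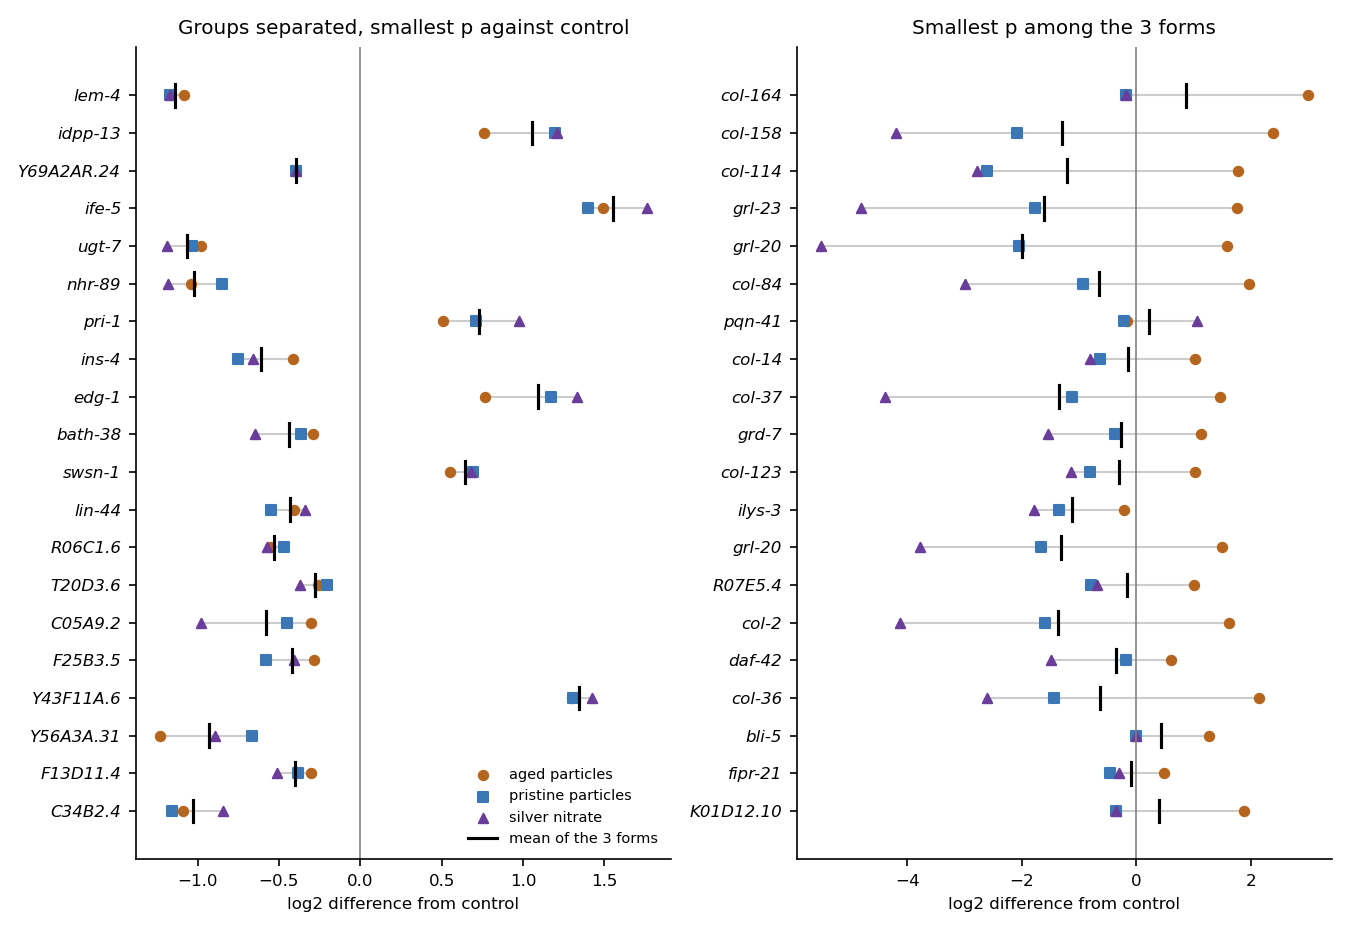
Log2 difference from control (x axis) for aged particles, pristine particles and silver nitrate, with a black tick at the mean of the 3 forms, in 20 genes with the groups apart and the smallest p for any silver (left) and in 20 probe sets with the smallest p of the F test among forms (right, where grl-20 has 2 probe sets). The forms lie on one side of 0 on the left, as the choice of genes fixes, and spread over both sides in most rows on the right.

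Markers of the epidermis and of body wall muscle reached their highest levels on aged-particle arrays. The level of 9 epidermis markers was 0.33 to 0.86 on the aged-particle arrays, −0.57 to −0.19 on the pristine arrays and −0.49 to 0.40 on the silver nitrate arrays, against −0.05 to 0.07 in control. That of 12 muscle markers was 0.06 to 0.36, −0.15 to 0.04 and −0.11 to 0.04 in the same order, against −0.08 to 0.16 in control. The epidermis markers include collagens, such as col-19, sqt-3 and rol-6, and the hedgehog-related gene grd-10. Their level is thus not a reading separate from those genes. No marker of either set was at the floor on all arrays, and the part of these tissues in the collagen values was not tested. As a check on RNA integrity, the log2 signal at the 3-prime end less that at the 5-prime end was taken for 4 control genes of the array, and silver minus control was −0.16 for actin, 0.03 for Gapdh, −0.09 for ubiquitin and 0.07 for catalase. The exact two-sided permutation test over the 220 splits of the arrays gave p = 0.295, 0.6, 0.427 and 0.704 in that order, all 0.704 after Benjamini-Hochberg adjustment over the 4 genes, and the smallest p it allows is 0.0045. Within groups arrays correlated at r = 0.974 to 0.982 across probe sets and between groups at 0.968 to 0.983, and probe sets are not independent replicates.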

How the data were processed

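For 12 Affymetrix arrays the authors deposited an intensity per probe set on a linear scale, for RNA labelled from 100 ng of total RNA, per the labels. The mean after trimming 2% from each end was 500.1 to 500.2 on every array, so the deposited intensities had already been scaled between arrays. Summarisation method, software and genome build are not given in the sources used here, detection calls were not used here, and no scan or batch label was given. Array medians were 119.1 to 135.1, and the number of arrays limits the precision. Members and lists were chosen with earlier results of these data known.

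Arrays were brought to a common median, values under 16 were set to 16 (13.8% to 15.8% of probe sets on an array, 746 on all arrays), and log2 was taken. The median scaling moved silver against control by −0.04. In limma 3.58.1 (R 4.3.3), 1 model held a mean for each of the 4 groups (8 residual and 0.939 prior degrees of freedom). The contrast was the mean of the 3 silver means minus control, and an F test compared the 3 silver means. Both were adjusted by Benjamini-Hochberg over 22548 probe sets and called at an adjusted p under 0.05. Adjusted p-values of probe sets throughout are limma's, and ± after a log2 difference is its SE. Samples were grouped by their titles. The fit was tested on simulated data.

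Genes were named through the platform's probe annotation updated to RefSeq names: 20766 probe sets had 1 gene (17118 genes), 887 several and 895 none, and those with several or none are counted and not named. Named were the called genes, then the genes next in order of p up to 10 in each direction, and in each list the 4 members with the smallest p (all members of a list of 8 or fewer). For lists, the brightest probe set stood for a gene. Alternatives were other scalings, floors, brightness filters, a trend and robust fit, a replicate block, each array or form left out, and a 2-group model. No sequences are shown, as no sequence table was used here.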

Additional observations from a re-analysis of the deposited data

Results flagged for a closer look

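Results were picked out here where the 3 silver forms differed from each other by the F test, which does not use the control means, and each F test value below is a limma adjusted p over all probe sets. Among genes named for the pooled contrast, 2 were picked out. The collagen col-164 lay 2.99 (log2) above control with aged particles and at the floor with the other forms (adjusted p = 0.000286). The lysozyme ilys-3 differed from control by −0.22 with aged particles, −1.35 with pristine particles and −1.79 with silver nitrate (adjusted p = 0.0201).

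The other 8 were members of lists, and in 7 of them aged particles lay above control and the other forms below it. The ground-like, hedgehog-related genes were grl-20 (adjusted p = 0.00554), grl-23 (adjusted p = 0.00554), grl-25 (adjusted p = 0.0329) and grl-19 (adjusted p = 0.0345). For grl-23 the differences from control were 1.76 (aged), −1.77 (pristine) and −4.81 (silver nitrate), with 2 silver nitrate arrays at the floor. The collagens were col-114 (adjusted p = 0.00106), col-158 (adjusted p = 0.00105) and col-37 (adjusted p = 0.00968). For col-114 the differences were 1.77, −2.61 and −2.79 in the same order. The protease inhibitor gene bli-5 (adjusted p = 0.0325) lay 1.27 above control with aged particles and at the floor on every other array.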

How the results depend on the processing

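For the pooled contrast, 1 probe set was called with the main settings, 2 with the deposited scaling, 3 after quantile normalisation, 2 with a floor of 64, 2 without the dimmest 25%, 2 above median brightness, 2 with a trend and robust fit, 3 with aged particles left out, 4 with silver nitrate left out and 4 in a 2-group model. With 1 array left out the count was 1 to 14. It was 14, 11 and 13 without control replicates 1, 2 and 3, 10 without silver nitrate replicate 1, 3 without aged replicate 3 or pristine replicate 1 or 2, and 2 without silver nitrate replicate 2, and the cause was not tested. The lem-4 probe set was called in 20 of 24 settings, and ilys-3 in 5, idpp-13, ife-5 and Y69A2AR.24 in 4 each and ugt-7 in 3. Among the forms, 50 probe sets were called, 78 after quantile normalisation, 31 with a floor of 1, 212 above median brightness, 117 with a trend and robust fit, and 15 to 42 with 1 array left out. With a whole form left out, the other two differed in 1 probe set without aged particles, 23 without pristine particles and 13 without silver nitrate. Those under 34 there were 27 and 28 without control replicates 1 and 3, 15 and 17 without aged replicates 2 and 3, 22 without pristine replicate 3, and 19, 32 and 20 without silver nitrate replicates 1, 2 and 3. With the replicate number as a block, 24 were called among the forms and 1 in the pooled contrast. The numbers were not taken to pair the samples: deviations of same-numbered arrays correlated at −0.0991 to 0.094 (median 0.0565), against −0.131 to 0.177 (median −0.0117) for other numbers. As a hint from the data, 8 of 12 arrays correlated best with their own number.

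Few differences turned direction. Without aged particles col-164 was −0.19, unc-122 −0.027 and the catalase 3-prime minus 5-prime signal −0.0023. Without silver nitrate col-158 was 0.15 and col-37 0.18. With 1 array left out the ranges were −0.63 to 0.0055 for vit-5, −0.24 to 0.017 for vit-2, −0.16 to 0.035 for vit-6, −0.038 to 1.06 for tbx-8, −0.193 to 0.036 for ubiquitin and −0.0774 to 0.263 for catalase. The other differences were counted once for each named probe set in each of the alternative settings. Of these, 4510 kept their direction and their side of the threshold, 31 passed it and 2 no longer did, both of lem-4. Values near the floor of 16 have no order, which limits what can be said of dim genes such as lem-4, idpp-13, vit-1, vit-2 and vit-5.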
